A study of Mus musculus with 8 samples.

Results

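A set of 9 transcription factors of the intestinal epithelium was followed in the colon of mice with a high or a low histological injury score, namely Cdx1, Cdx2, Elf3, Klf4, Klf5, Atoh1, Spdef, Foxa1 and Gata6. Members were taken by name from the gene column of the authors' deposited table, with current and older symbols allowed. All 9 were on the array, on 12 probes, out of 41174 probes and 19439 named genes. Klf5 had 2 probes and Gata6 had 3, and each of these genes was represented by its brightest probe, with the others given beside it.

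The study compared colon RNA of 8 male mice fed the purified AIN-76A powdered diet without curcumin and killed at 21 or 24 weeks of age. Of these, 4 were Mdr1a-/- mice on the FVB/N background with a high histological injury score of the colon, a strain that lacks the drug efflux pump Abcb1a in every tissue and develops colitis spontaneously. The other 4 were labelled as FVB/N mice with a low score. The animals of each group were picked for their score, so genotype and score cannot be told apart, and the curcumin-fed mice of the study were not analysed here. Each mouse had its own 2-colour array, with the sample in Cy3 and a common reference in Cy5. That reference pooled adult Swiss mouse intestine, colon, kidney and liver with fetal RNA, and every value below is log2(sample / reference) unless another scale is named. A ratio to that pool gives no level that can be compared between genes, so genes are compared by their differences between groups.

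Transcription factors of this set act at successive steps of epithelial life. The homeobox factors CDX1 and CDX2 set and keep intestinal identity, and GATA6 and FOXA1 act beside them at gut enhancers. KLF5 is most abundant in dividing crypt cells, KLF4 in cells that have stopped dividing, and ELF3, an epithelial ETS factor, in differentiating cells. ATOH1 starts the secretory lineage and SPDEF completes goblet and Paneth cell maturation.

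The targeted gene did not separate the groups. Abcb1a stood at -0.89, -0.95, -0.70 and -0.97 in Mdr1a-/- mice 1 to 4 and at -0.80, 0.01, -0.49 and -0.62 on the arrays labelled FVB/N. The spot was dim, with a mean net Cy3 signal of 634 and 873 against array background limits of 450 to 757. It was above background on 3 Mdr1a-/- arrays and on all 4 others, which limits how well it can separate the groups. The groups overlapped, and the difference of -0.40 ± 0.19 (SE) had an adjusted p of 0.362 in limma, although the authors' deposited table lists -1.62 with an adjusted p of 9.75e-05. The files do not state which arrays went into that table. Its t and p values imply a median of 18.7 degrees of freedom, against 9.41 in the fit here, of which 6 come from the 8 arrays, and its fold changes are described as log10 but read here as log2. The labels' protocol lists slide numbers for both groups, and 3 of the 4 Mdr1a-/- arrays but 0 of the 4 others carry a listed one. The second group is therefore called the arrays labelled FVB/N throughout, and every direction below is drawn against them. Between 27596 and 35541 probes per array were above background, meaning a net Cy3 signal over the 95th percentile of the negative control spots, and all 9 representative probes were among them on all 8 arrays.

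Of the 9 genes, 2 fell in Mdr1a-/- mice, Elf3 and Klf5, and 0 rose. A gene was called where p, after Benjamini-Hochberg adjustment across the whole array, was under 0.05. The background was 1.45% of all 41174 probes called lower and 1.53% called higher, or 2.17% and 2.26% with 1 probe per named gene. Cdx1 and Gata6 were also lower on every Mdr1a-/- array than on any array labelled FVB/N but missed the threshold, so 4 of 9 genes were lower without overlap, beside 6.57% of named genes, and 0 of 9 were higher without overlap, beside 7.25%. Atoh1, Klf4, Spdef, Foxa1 and Cdx2 overlapped between the groups. The median difference over the 9 genes was -0.29, beside 0.03 over all named genes. Without subtracting background, or with dim probes left out, or with arrays weighted, 4 genes were called lower, and with scan day as a block, a pancreatic covariate or values relative to Cdh1 and Epcam 0 were. Over all probes, lower calls also rose with dim probes left out or arrays weighted. They fell with the block, the covariate and scaling to Cdh1 and Epcam, as given below. Without background subtraction no count over all probes is given.

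**Figure D1:**
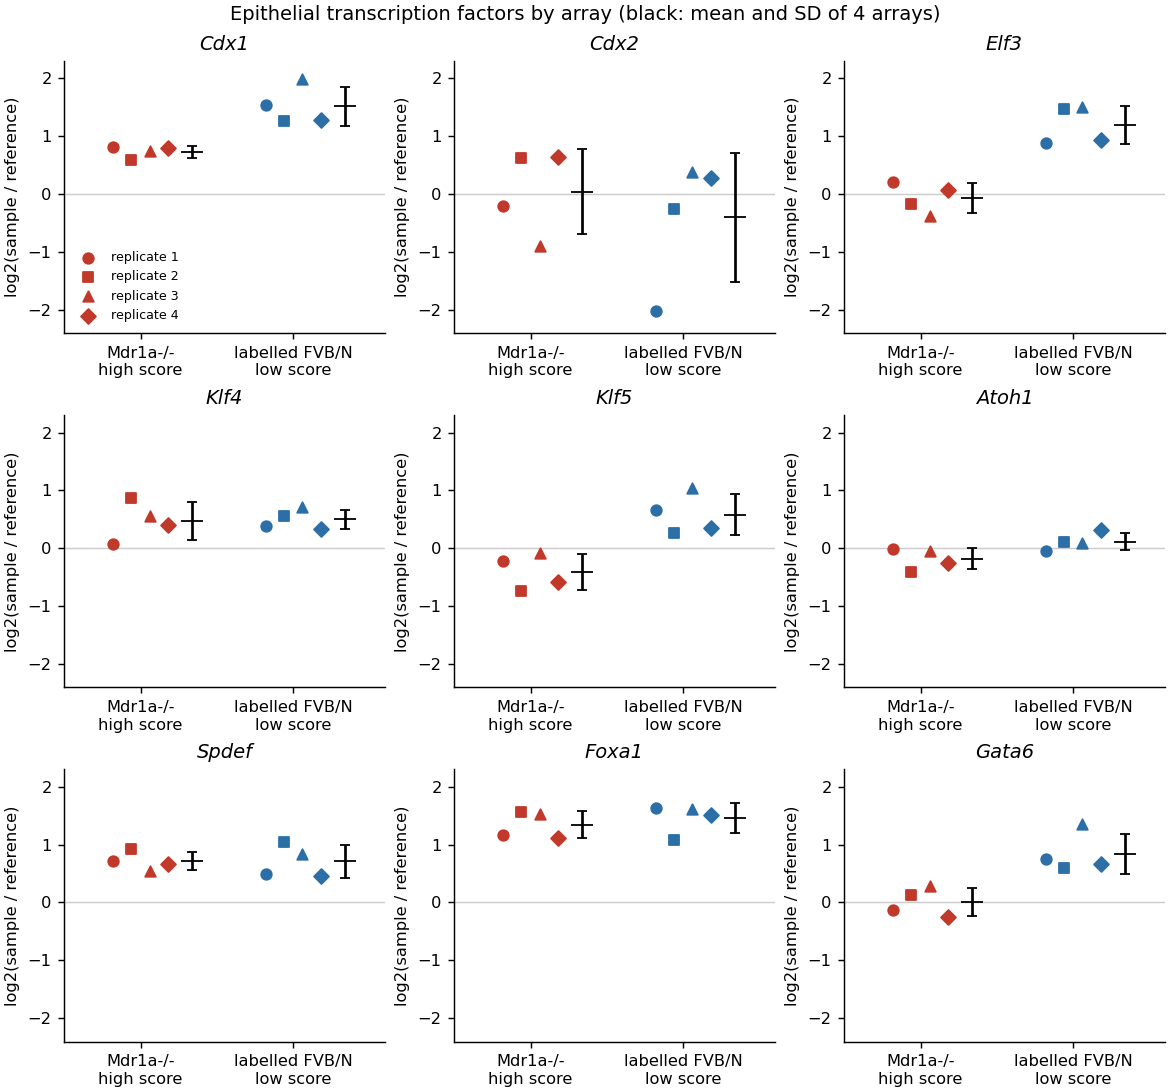
Level of each of the 9 factors on each array as log2(sample / reference), with the 4 Mdr1a-/- mice in red and the 4 arrays labelled FVB/N in blue; shapes mark replicate numbers and black bars the mean and SD of 4 arrays. Elf3, Klf5, Cdx1 and Gata6 do not overlap between groups, whereas Cdx2 ranges from -2.02 to 0.64 and overlaps.

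Elf3 showed the largest difference of the 9. Its probe A_51_P480241 (NM_007921) read 0.22, -0.17, -0.37 and 0.08 in Mdr1a-/- mice 1 to 4 and 0.89, 1.47, 1.50 and 0.93 on the arrays labelled FVB/N. Every Mdr1a-/- array lay below every other array, with a gap of 0.68 between the groups. The net Cy3 intensity of the spot was 5942, 3506, 3059 and 6333 in Mdr1a-/- mice and 12648, 21218, 19680 and 10506 on the other arrays, far from background and from saturation. The group means were -0.06 ± 0.26 and 1.20 ± 0.33 (SD, n = 4), and the difference of -1.26 ± 0.20 (SE) corresponded to a level 2.40-fold lower (95% interval of the log2 difference -1.72 to -0.80, adjusted p = 0.0126). The colon was taken whole, so fewer epithelial cells and less Elf3 RNA per epithelial cell cannot be told apart by this value alone. Relative to the mean of 6 epithelial structural genes on the same array (Epcam, Cdh1, Krt8, Krt18, Krt19 and Cldn7), the difference was -1.08 ± 0.22 with an adjusted p of 0.0293. That scale rests largely on bright spots, since the reference channel was near saturation for Krt8 on 6 arrays, for Cldn7 on 5, for Krt18 on 4, for Krt19 on 2 and for Epcam on 1. Relative to Cdh1 and Epcam alone, the difference was -0.79 ± 0.27 and the call was lost (adjusted p = 0.0664). The call held without any 1 of the 8 arrays (adjusted p 0.0242 to 0.0429). It was lost with scan day as a block (-1.33, adjusted p = 0.0696), within scan day 2 alone (-1.18, 0.333) and with the pancreatic acinar markers as a covariate (-0.89, 0.102).

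The promoters of Elf3, which was called lower, of Cdx2, which varied most between arrays, and of Spdef, which differed least between groups, are printed from 250 bases before to 50 after the start site (RefSeq, GRCm38.p6, all on the minus strand, 5′ to 3′ of the gene). Promoter windows were taken for 6 of the 9 genes, without Cdx1, Klf5 and Gata6. Elf3 lies at chr1:135258423-135258722, Cdx2 at chr5:147307200-147307499 and Spdef at chr17:27728902-27729201. Capitals mark exact matches on either strand to short cores of the motifs of the set's own families: TTTATNG for the CDX homeobox factors, AGATAAG for the GATA factors, CGGAAG for the ETS family of Elf3 and Spdef, CCACCC for the KLF family, CAGNTG for the E-box that ATOH1 and other bHLH factors read, and TGTTTNC for the FOX family.
Elf3: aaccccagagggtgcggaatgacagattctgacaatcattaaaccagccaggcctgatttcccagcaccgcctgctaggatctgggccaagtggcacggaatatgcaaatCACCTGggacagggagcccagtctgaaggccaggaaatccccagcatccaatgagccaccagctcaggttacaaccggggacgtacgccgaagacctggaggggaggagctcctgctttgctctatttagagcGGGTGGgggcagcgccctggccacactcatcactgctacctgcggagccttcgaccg
Cdx2: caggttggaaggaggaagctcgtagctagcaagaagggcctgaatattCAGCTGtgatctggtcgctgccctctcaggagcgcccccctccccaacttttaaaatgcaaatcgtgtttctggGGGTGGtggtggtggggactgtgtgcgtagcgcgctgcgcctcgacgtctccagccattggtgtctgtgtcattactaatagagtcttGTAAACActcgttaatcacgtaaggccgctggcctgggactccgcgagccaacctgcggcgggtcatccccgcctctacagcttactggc
Spdef: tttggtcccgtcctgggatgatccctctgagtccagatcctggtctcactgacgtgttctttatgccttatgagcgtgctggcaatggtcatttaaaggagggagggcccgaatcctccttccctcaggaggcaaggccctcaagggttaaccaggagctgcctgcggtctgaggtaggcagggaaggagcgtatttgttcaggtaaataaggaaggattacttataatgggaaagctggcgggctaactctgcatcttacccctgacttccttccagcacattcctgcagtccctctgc
The Elf3 window held a KLF core at -7 and an E-box at -140 from the start site. The Cdx2 window held a KLF core at -128, an E-box at -202 and a FOX core at -40, and the Spdef window held none of the 6 cores. Of all 32851 promoters of this length, 31.5% held the KLF core, 51.4% the E-box, 20.5% the FOX core, 16.9% the ETS core, 10.9% the CDX core and 3.04% the GATA core. A match is only these letters in this window. GC content was 59.0% in Elf3, 57.3% in Cdx2 and 53.3% in Spdef, beside a median of 52.7% over all promoters, and the windows held 12, 18 and 7 CpG dinucleotides beside a median of 7.

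Klf5, the zinc-finger factor of proliferating crypt cells, was the other gene called lower. Probe A_51_P507290 (NM_009769) read -0.22, -0.74, -0.08 and -0.59 in Mdr1a-/- mice 1 to 4 and 0.66, 0.26, 1.04 and 0.35 on the arrays labelled FVB/N. The groups were separated by a gap of 0.34. The means were -0.41 ± 0.31 and 0.58 ± 0.35 (SD, n = 4), and the difference was -0.98 ± 0.22 (SE), a level 1.98-fold lower (95% interval -1.48 to -0.49, adjusted p = 0.0484). This call lay at the threshold: it held without Mdr1a-/- mouse 3 (adjusted p = 0.0404) but was lost when any 1 of the other 7 arrays was left out (0.0601 to 0.148), with scan day as a block (-0.95, 0.196), with the pancreatic covariate (-0.88, 0.291) and relative to the 6 epithelial genes (-0.80, 0.0575) or to Cdh1 and Epcam (-0.52, 0.0984). The second Klf5 probe, A_52_P54463 (BC006646), was dimmer and read -0.07, 0.39, 0.02 and -0.29 against 0.72, -0.29, 0.99 and 0.71. Array 2 labelled FVB/N was the lowest of all 8 arrays on that probe, and the difference of -0.52 ± 0.28 had an adjusted p of 0.442. The probes shared a direction and differed in the call, and their mean gave -0.75 with an adjusted p of 0.0723.

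Klf4, the partner of Klf5 in non-dividing cells and a factor that goblet cells need in mouse colon, could not be sized. Its probe read 0.08, 0.86, 0.56 and 0.40 in Mdr1a-/- mice and 0.39, 0.57, 0.71 and 0.34 on the other arrays, and the groups overlapped. The spot was close to the top of the scanner range, with a Cy3 intensity of 60313 to 61760 on all 4 arrays labelled FVB/N and 46184 to 59634 on the Mdr1a-/- arrays. The reference channel ran from 59149 to 62082. The difference of -0.03 ± 0.19 (adjusted p = 0.972) is therefore not read as a measure of equal levels, and its sign turned under 5 of 22 alternatives.

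**Figure D2:**
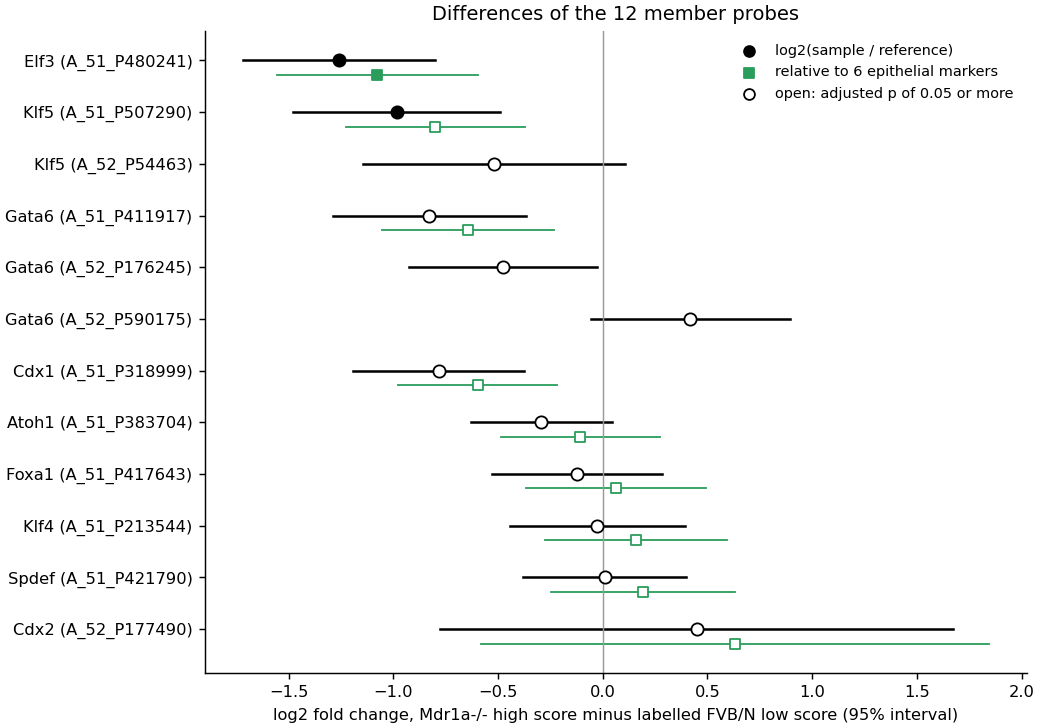
Difference between Mdr1a-/- mice and arrays labelled FVB/N in log2 units for the 12 probes of the 9 genes, with 95% intervals; circles give log2(sample / reference) and green squares the same after subtracting the array's mean over 6 epithelial genes, for the representative probes; most of those 6 genes were near saturation on some arrays. Filled symbols mark an adjusted p under 0.05, which Elf3 reached on both scales, at -1.26 and -1.08.

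Of the caudal homeobox pair, Cdx1 separated the groups and Cdx2 did not. Cdx1, on probe A_51_P318999 (NM_009880), read 0.83, 0.59, 0.74 and 0.79 in Mdr1a-/- mice and 1.55, 1.27, 1.99 and 1.28 on the arrays labelled FVB/N. The 4 Mdr1a-/- values lay close together and all below the lowest of the other group. The difference was -0.78 ± 0.18 (95% interval -1.19 to -0.37), and its adjusted p of 0.0556 missed the threshold. It passed in 5 of 22 alternatives (adjusted p 0.0275 to 0.0431), among them no background subtraction, dim probes left out and array weights. With dim probes left out or probes averaged, the difference itself stayed at -0.78. Cdx1 missed the threshold relative to the epithelial structural genes (-0.60, adjusted p = 0.102) or to Cdh1 and Epcam (-0.32, 0.237). It also missed it with scan day as a block (-0.85, 0.144) and with the pancreatic covariate (-0.68, 0.330). Leaving out single arrays gave adjusted p values of 0.0659 to 0.138.

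Cdx2 spread further between mice of 1 group than the groups differed. Probe A_52_P177490 read -0.19, 0.63, -0.88 and 0.64 in Mdr1a-/- mice 1 to 4 and -2.02, -0.25, 0.39 and 0.28 on the arrays labelled FVB/N. The lowest value belonged to array 1 labelled FVB/N and the second lowest to Mdr1a-/- mouse 3. The SD over all 8 arrays, 0.91, was the largest of the 9 genes, and the difference of 0.45 ± 0.54 (95% interval -0.78 to 1.67) had an adjusted p of 0.784. Without array 1 labelled FVB/N the difference was -0.09 (adjusted p = 0.951). It was 1.03 among the 2 arrays of each group scanned on day 2 and -0.90 on day 3, with 1 array against 2.

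Gata6, a zinc-finger factor of gut epithelium, separated the groups without reaching the threshold, as Cdx1 did. Its brightest probe, A_51_P411917, read -0.12, 0.14, 0.29 and -0.25 in Mdr1a-/- mice and 0.75, 0.60, 1.35 and 0.66 on the other arrays. No Mdr1a-/- array reached the other group, and the difference was -0.83 ± 0.20 (95% interval -1.29 to -0.37, adjusted p = 0.0695). Array weights (adjusted p = 0.0315), no background subtraction (0.0405) and leaving out dim probes (0.0366) carried it past the threshold. With dim probes left out the difference itself stayed at -0.83. Gata6 missed the threshold relative to the 6 epithelial genes (-0.64, 0.102) or to Cdh1 and Epcam (-0.36, 0.218). It also missed it with scan day as a block (-0.76, 0.253), with the pancreatic covariate (-0.87, 0.260) and without any 1 array (0.0620 to 0.197). Probe A_52_P176245 of the same transcript gave -0.47 ± 0.20 (adjusted p = 0.302), with 0.42, 0.23, 0.52 and 0.30 against 0.94, 0.56, 1.34 and 0.52. There the groups met almost at the same value. Probe A_52_P590175 was above background on 3 Mdr1a-/- arrays and 2 others and gave 0.42 ± 0.21 (0.410), so the mean over the 3 probes was -0.30 (0.347).

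Foxa1, a pioneer factor that opens chromatin in endoderm, read 1.16, 1.56, 1.53 and 1.12 in Mdr1a-/- mice and 1.62, 1.09, 1.62 and 1.51 on the arrays labelled FVB/N. The lowest of all 8 values belonged to an array labelled FVB/N. The difference was -0.12 ± 0.18 (95% interval -0.53 to 0.29, adjusted p = 0.83).

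Both factors of the secretory lineage stayed below the threshold. Atoh1 read -0.01, -0.40, -0.04 and -0.25 in Mdr1a-/- mice and -0.05, 0.12, 0.09 and 0.31 on the other arrays. Array 1 labelled FVB/N was the 1 array that lay among the Mdr1a-/- values, and the difference of -0.29 ± 0.15 (95% interval -0.63 to 0.04) had an adjusted p of 0.415. The spot was dim, with net Cy3 signals of 697 to 1127 against array limits of 450 to 757, and relative to Cdh1 and Epcam the sign turned (0.17). Spdef read 0.72, 0.92, 0.55 and 0.67 against 0.50, 1.04, 0.84 and 0.45. Its values were interleaved, the difference was 0.01 ± 0.17 (95% interval -0.38 to 0.40, adjusted p = 0.990), and its sign depended on the setting in 8 of 22 alternatives.

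In the authors' deposited table Elf3 is listed at -1.002 (adjusted p = 0.0152), Cdx1 at -0.63 (0.0375), Gata6 at -0.56 (0.0311) on its brightest probe, and Klf5 at -0.70 (0.111) and -0.63 (0.0482) on its 2 probes. Atoh1 at -0.28 (0.0795), Spdef at -0.24 (0.527), Foxa1 at -0.07 (0.787), Klf4 at 0.08 (0.782) and Cdx2 at 0.85 (0.329) miss 0.05 in the authors' deposited table, as do the other Gata6 probes at -0.20 (0.327) and 0.14 (0.540). By brightest probe it thus calls Elf3, Cdx1 and Gata6 lower and 0 members higher, with Klf5 lower only on its dimmer probe. Over its 35449 spots with a p, the authors' deposited table calls 4.39% lower and 6.31% higher at 0.05. That background is wider than here and is a share of spots, not of genes. The log2 reading of its fold changes comes from their slope of 0.87 on the log2 differences computed here.

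Distances between the array profiles of the 9 genes, as the root mean square difference of log2 ratios centred on each gene's mean over the 8 arrays, put Cdx1 nearest to Klf5 (0.193) and to Gata6 (0.200). Klf5 and Gata6 differed by 0.227. Cdx2 was 0.784 to 1.19 from every other member. Genes with little spread lie close by this measure, and all profiles share the same 8 arrays.

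The same measure was taken to 14123 named genes above background on all 8 arrays, for the 3 members with the largest spread. The genes nearest to Cdx2 were 1810065E05Rik (0.524), Cldn15 (0.539) and Slc9a3 (0.551), where the median candidate lay at 0.888. Slc9a3, the apical sodium-proton exchanger of absorptive cells, read -1.09, -1.25, -3.71 and -1.35 in Mdr1a-/- mice and -4.31, -1.58, -1.31 and -1.79 on the other arrays. Cldn15, a claudin that forms sodium-selective pores, likewise had its lowest values in array 1 labelled FVB/N (-1.35) and Mdr1a-/- mouse 3 (-1.05). These genes were picked for their nearness to Cdx2 on the same arrays, so sharing its low arrays follows from the choice.

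For Elf3 the nearest genes were Slc9a3r1, a scaffold protein of the brush border (0.167), Pfn1, the actin-binding profilin 1 (0.177), and Hnf4a, a nuclear receptor of enterocyte differentiation (0.181), beside a median of 0.725. All 3 were called lower in Mdr1a-/- mice, Slc9a3r1 at -1.17 (adjusted p = 0.0152) and Pfn1 at -1.21 (0.0254). Pfn1 lost its call without Mdr1a-/- mouse 1, 2 or 4 or array 2 labelled FVB/N (up to 0.0659). For Klf5 they were Bahcc1 (0.149), Aldh1b1, a mitochondrial aldehyde dehydrogenase (0.154), and Cant1 (0.165), beside a median of 0.616. Nearness to Elf3 or Klf5 includes their difference between groups.

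**Figure D3:**
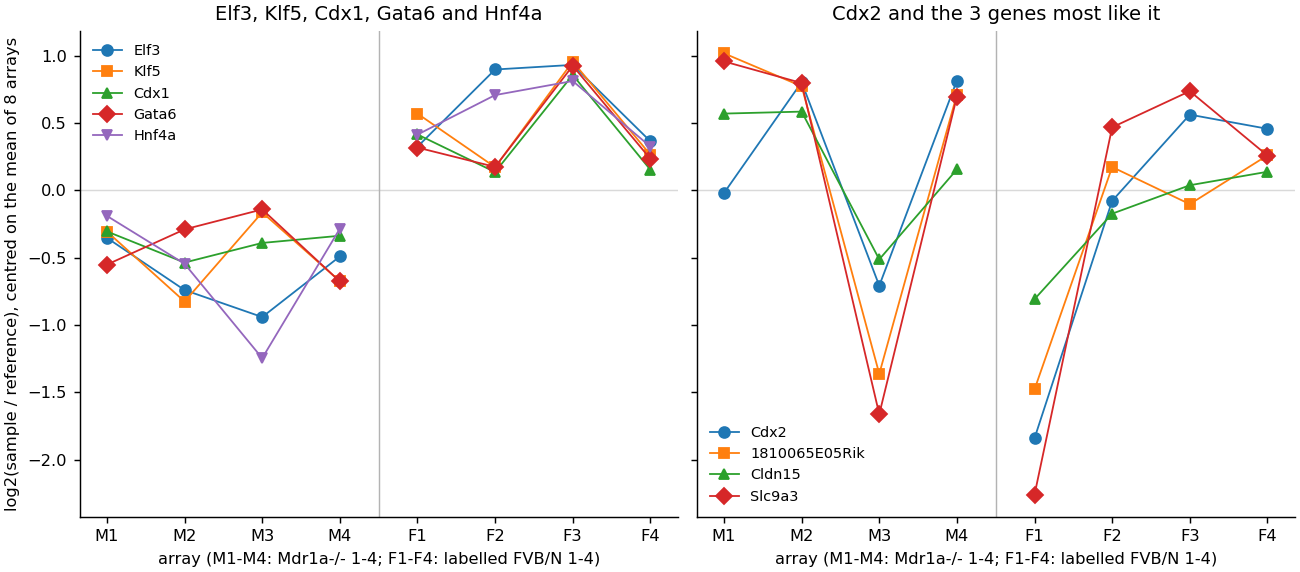
Level on each array centred on the gene's mean over the 8 arrays, in log2 units; M1 to M4 are Mdr1a-/- mice and F1 to F4 arrays labelled FVB/N. On the left, Elf3, Klf5, Cdx1, Gata6 and Hnf4a lie below 0 on M1 to M4 and above 0 on F1 to F4; on the right, Cdx2 and the 3 genes nearest to it are lowest on F1 and M3.

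Among 29 other transcription factors of the intestinal epithelium, 2 were called lower in Mdr1a-/- mice and 0 higher. The shares over named genes were 2.17% and 2.26%. Without overlap 5 were lower and 1 higher, beside 6.57% and 7.25% of named genes. The median difference of the 29 was -0.33. Hnf4a read -0.52, -0.88, -1.58 and -0.62 in Mdr1a-/- mice and 0.08, 0.37, 0.48 and -0.01 on the arrays labelled FVB/N. The groups did not overlap, and Hnf4a differed by -1.13 ± 0.24 (adjusted p = 0.0401) and Tcf7l2, the Wnt effector of crypt stem cells, by -0.92 ± 0.20 (0.0453). Hnf4a and Tcf7l2 kept their calls only without Mdr1a-/- mouse 3, with adjusted p values of up to 0.120 and 0.139 when another array was left out. Both also lost them relative to the 6 epithelial genes (0.102 and 0.0835), with the sample channel alone (0.118 and 0.0576) and once scan day was blocked (0.0749 and 0.217). The mean over the Hnf4a probes was -0.50 (0.0698). Foxa2, the paralog of Foxa1, missed the threshold at -1.07 ± 0.25 (0.0585), and Isx, an intestinal homeobox repressor of vitamin A uptake genes, was the gene without overlap on the higher side at 1.19 ± 0.28 (0.0619), on a probe above background on only 2 of the 4 arrays labelled FVB/N.

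**Figure D4:**
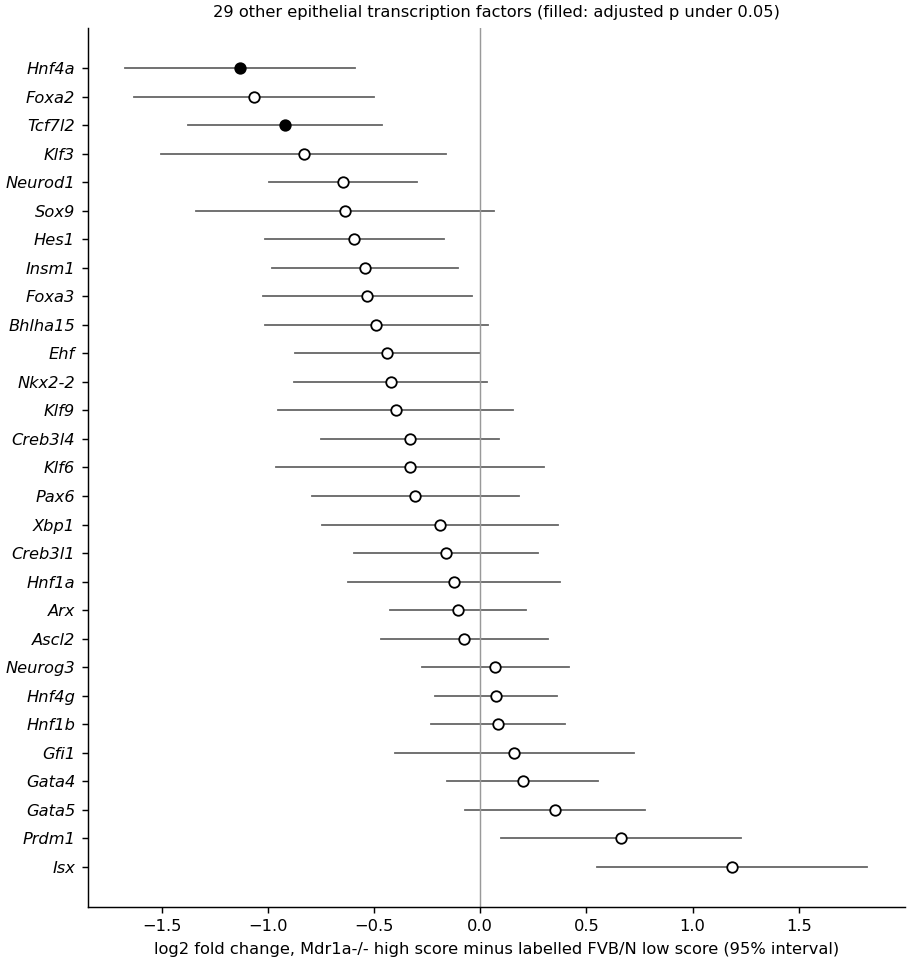
Difference between Mdr1a-/- mice and arrays labelled FVB/N in log2 units for 29 other epithelial transcription factors, with 95% intervals, ordered by size. Filled points (Hnf4a and Tcf7l2) had an adjusted p under 0.05; the largest positive difference, Isx at 1.19, did not.

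Of 13 genes known to depend on CDX factors, 1 was called lower and 0 higher, beside 2.17% and 2.26% of named genes. Without overlap 2 were lower and 2 higher, beside 6.57% and 7.25%. The list's median was -0.13. The called gene was Slc26a3, the apical chloride-bicarbonate exchanger of colonocytes. It read -0.12, 0.37, -0.47 and -0.33 in Mdr1a-/- mice and 1.88, 2.36, 2.78 and 2.56 on the other arrays. No other gene of this list was as far apart, and the difference of -2.54 ± 0.24 (5.80-fold lower, adjusted p = 0.00167) kept its call without any 1 array. Isx, which is also on this list, leaned the other way at 1.19 ± 0.28 (0.0619). So did Car1, a cytosolic carbonic anhydrase of colon epithelium, at 0.83 ± 0.22 (0.0825).

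Of 14 goblet and secretory genes, 2 were called lower and 0 higher, beside 2.17% and 2.26% of named genes. The list's median was -0.13. The reference channel was near saturation for Zg16 on 8 arrays, for Clca1 and Retnlb on 6 and for Tff3 and Fcgbp on 5. It was so for Agr2 on 3 and for Muc2 on 2, so this median is not read as equal levels. Fcgbp, a mucus protein of goblet cells, read -2.36, -1.07, -1.55 and -2.31 against 0.22, 0.27, 0.65 and 0.32, a difference of -2.19 ± 0.28 (adjusted p = 0.00524). Chga, a granule protein of enteroendocrine cells, differed by -1.75 ± 0.23 (0.00577). The Chga call was lost with scan day as a block (0.0565) and with the pancreatic covariate (0.0698). Muc2, the gel-forming mucin, read -1.35, -1.30, 0.30 and -1.57 against -0.88, -0.57, 0.10 and -0.23 and was not called (-0.59 ± 0.40, 0.569).

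Of 10 genes regulated by KLF4, KLF5 or ELF3, 0 were called lower and 2 higher, beside 2.17% and 2.26% of named genes. The list's median was 0.39. The list mixes genes that these factors raise with genes that they lower, so its median does not measure their activity. Mki67, a marker of dividing cells of any type, differed by 1.43 ± 0.24 (adjusted p = 0.0142), and the call was lost without Mdr1a-/- mouse 4 (0.055). Tgfbr2, a receptor for TGF-beta that ELF3 activates in mouse gut, differed by 0.63 ± 0.13 (0.0306), and the call held only without Mdr1a-/- mouse 2 when single arrays were left out (up to 0.105). Mki67 and Tgfbr2 both lost their calls with scan day as a block and with the pancreatic covariate. Ccnd1, the cyclin that KLF5 raises and KLF4 lowers, was not called (0.42 ± 0.29, 0.585).

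Marker genes of other cells and tissues differed between the same arrays. The 6 epithelial structural genes were above background on all 8 arrays, 0 of 6 were called, and their array means ran from 0.11 to 0.41 in Mdr1a-/- mice and from 0.32 to 0.60 on the arrays labelled FVB/N. Of the least saturated, Cdh1 differed by -0.47 (95% interval -0.87 to -0.07, adjusted p = 0.244) and Epcam by -0.46 without overlap (-0.86 to -0.07, 0.247), while the keratins and Cldn7 lay between -0.16 and 0.07. Of 6 leukocyte markers 1 was called higher, beside 2.26% of named genes. It was Ptprc, the pan-leukocyte antigen CD45 (2.21 ± 0.30, adjusted p = 0.00634). The mean over the Ptprc probes was 1.04 (0.0121), and the call was lost with scan day as a block (0.0565) and with the pancreatic covariate (0.0713). The list's array means did not overlap, at 0.89 to 1.24 against -0.22 to 0.50. Endothelial markers ran from -1.22 to -0.38 against -1.13 to -0.77, with 0 of 3 called. Fibroblast markers ran from -0.76 to 0.11 against -1.19 to -0.63 and smooth muscle markers from -0.40 to 0.44 against 0.08 to 0.65, with 0 of 5 called in each. The part of leukocyte, fibroblast or muscle RNA in the lower Elf3, Klf5, Cdx1 and Gata6 values was not tested.

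Markers of tissue outside the gut wall varied between arrays. The 7 pancreatic acinar markers, 0 of them called, averaged 0.84, -1.15, -1.18 and -0.75 in Mdr1a-/- mice 1 to 4 and 0.12, 1.45, 1.14 and -0.03 on arrays 1 to 4 labelled FVB/N. The 5 adipose markers, 0 of them called, averaged -0.38, -0.01, -0.55 and -0.62 against 0.90, 1.90, 1.51 and -0.998. Array 4 labelled FVB/N had less adipose signal than every Mdr1a-/- array and a pancreatic signal inside their range. On that array Elf3 (0.93), Klf5 (0.35), Cdx1 (1.28) and Gata6 (0.66) were above all Mdr1a-/- arrays. The same holds on every array labelled FVB/N, because these 4 genes did not overlap between the groups. Beyond the pancreatic covariate given above, the part of such tissue in these values was not tested.

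**Figure D5:**
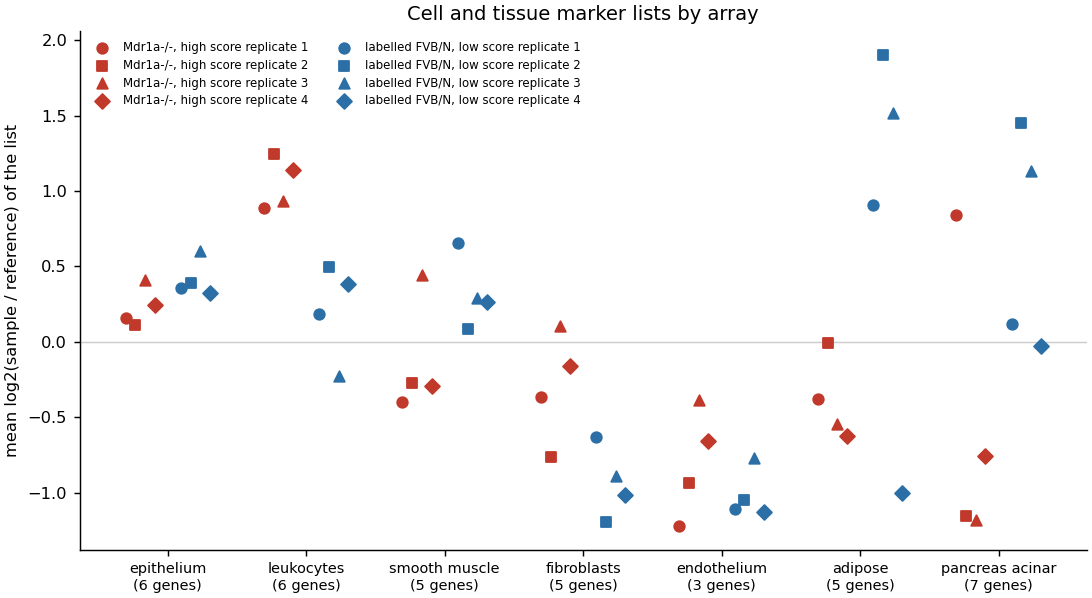
Mean log2(sample / reference) of 7 cell and tissue marker lists on each array, with Mdr1a-/- mice in red and arrays labelled FVB/N in blue; shapes mark replicate numbers. Leukocyte means do not overlap between groups (0.89 to 1.24 against -0.22 to 0.50), and adipose and pancreatic means spread widely, with array 4 labelled FVB/N lowest for adipose genes at -0.998.

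Some posterior Hox genes, a group that in mouse is higher towards the rectum, differed as well. Of 10 posterior Hox genes 3 were called lower in Mdr1a-/- mice and 0 higher, beside 2.17% and 2.26% of named genes. The median difference was only -0.24. Hoxa11 (0.51 ± 0.20, adjusted p = 0.273) and Hoxa10 (0.48 ± 0.30, 0.533) leaned the other way and were not called. Hoxb13 read 0.67, 1.34, 1.77 and 0.97 against 3.26, 3.07, 3.45 and 3.29, a difference of -2.08 ± 0.23 (adjusted p = 0.00254). Hoxa13 differed by -1.11 ± 0.19 (0.0142), a call lost relative to Cdh1 and Epcam (-0.65, 0.0804). Hoxd13 read -0.56, -0.24, 2.54 and -0.47 against 3.72, 3.32, 3.24 and 2.82 (-2.96 ± 0.62, 0.0381), and kept its call only without Mdr1a-/- mouse 3 when single arrays were left out (up to 0.118). That mouse stood near the other group for Hoxd13, was the highest Mdr1a-/- mouse for Hoxb13 and the lowest for Hoxa13 (0.58). On its array Elf3 was at its lowest, -0.37, while Klf5 and Gata6 were at their highest of the Mdr1a-/- arrays, -0.08 and 0.29. The part of tissue position in the lower Elf3, Klf5, Cdx1 and Gata6 values was not tested.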

How the data were processed

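Colon RNA of 8 mice was hybridised on Agilent 2-colour arrays, 1 per mouse, with samples in Cy3 and no dye swap. The deposited array files hold the Cy5 and Cy3 foreground and background intensity of each spot, and a log2 ratio of reference over sample, which the authors normalised with local background subtraction and loess (recomputed here to within 2.7e-13). The submitters' processing notes name limma. The authors' deposited table adds a fold change, read as log2, and a p-value for 35449 of 44290 spots. Its moderated t, as deposited by the authors, was used only to read the degrees of freedom, and its log-odds score was not used.

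Here, intensities were background-corrected with normexp (offset 50) and normalised by loess within arrays with control spots at weight 0 (limma 3.58.1, R 4.3.3). Spots of 1 probe were averaged, and ratios were turned to sample over reference. Groups followed the titles, and their difference was fitted with lmFit and eBayes over all 41174 probes and 8 arrays, two-sided. Adjusted p-values are Benjamini-Hochberg over all probes, and a gene was called under 0.05. A probe was above background where its net Cy3 signal passed the 95th percentile of 314 negative control spots, and near saturation at 60000 or more. Precision rests on 4 arrays a group. RefSeq named 22064 probes by accession, 6286 by symbol and 4210 by an older symbol, and 8614 were left unnamed.

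The members and gene lists were chosen with earlier results of these data known, and the posterior Hox list and both paralog lists after the values were seen. From each list, called genes were named, up to 4, or the 2 with the smallest p where none was called; Car1, Muc2, Ccnd1, Foxa2, Isx and the Hox genes were named after their values were seen. The fit was tested on simulated data. Each mouse is a separate animal. Alternatives covered background, normalisation, scaling to 6 epithelial genes or, added after seeing the data, to Cdh1 and Epcam, the sample channel alone, a dim-probe filter, array weights, scan day, the replicate number as a block, a pancreatic covariate, probe averaging and each array left out. A gene of the list of other epithelial factors is not reported here.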

Additional observations from a re-analysis of the deposited data

How the results depend on the processing

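The count of 2 members called lower became 4 without background subtraction, with dim probes left out, with array weights and at an adjusted p under 0.1. For the first and last of these settings no count over all probes is given. The count of members became 1 with the authors' log2 ratio and relative to epithelial genes, and 0 with scan day as a block, within scan day 2 alone, with the pancreatic covariate and relative to Cdh1 and Epcam. The sample channel alone called 3, Elf3, Klf5 and Cdx1, and averaging probes called Elf3 and Cdx1 in place of Klf5. Leaving out single arrays gave 1 to 2, and no setting called a member higher. The cause of these changes was not tested. Scan day 2 holds only 4 arrays, and the blocks and the covariate leave fewer residual degrees of freedom. With the pancreatic covariate the Elf3 difference itself was smaller, at -0.89 ± 0.20 (SE) against -1.26 ± 0.20 in the main fit. Over all probes, 598 lower and 628 higher calls became 115 and 133 with scan day as a block, 0 and 0 within scan day 2, 104 and 116 with the pancreatic covariate, 952 and 976 of 28936 with dim probes left out, 939 and 1081 with array weights, 346 and 942 relative to 6 epithelial genes, 176 and 4575 relative to Cdh1 and Epcam, and 778 and 422 with the sample channel alone. Scaling to the 6 epithelial genes moved the median of all probes from 0.02 to 0.21, and scaling to Cdh1 and Epcam, added after the data were seen, to 0.49. Without single arrays they ran from 247 to 675 and from 250 to 783, lowest in both directions without Mdr1a-/- mouse 4.

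Replicate numbers did not pair the mice: same-numbered arrays deviated together with r of 0.064, 0.111, 0.026 and -0.035. With the replicate number as a block, 1 member was called lower, Klf5, while Elf3 stood at -1.26 with an adjusted p of 0.077, and all probes gave 286 lower and 310 higher calls.

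Elf3 was negative in 22 of 22 alternatives and called in 17, Klf5 negative in 22 and called in 8, Cdx1 and Gata6 negative in 22 each and Atoh1 in 21. Signs turned for members with small or unstable differences. Without single arrays Cdx2 ranged from -0.091 without array 1 labelled FVB/N to 0.758 without Mdr1a-/- mouse 3, and its highest value was 1.03 within scan day 2. Klf4 was 0.16 and Foxa1 0.0646 relative to 6 epithelial genes, and relative to Cdh1 and Epcam Klf4 was 0.442, Foxa1 0.347 and Atoh1 0.175. Klf4 ranged from -0.15 to 0.11 without single arrays, with 0.11 without Mdr1a-/- mouse 1, 0.00097 without mouse 4 and 0.044 without array 3 labelled FVB/N. Spdef was -8.5e-05 with local background subtraction, -0.0175 without subtraction, -0.00091 with the authors' log2 ratio, -0.0259 with quantile normalisation and -0.23 with the sample channel alone, and from -0.0777 to 0.12 without single arrays, with -0.06 without Mdr1a-/- mouse 2 and -0.06 without array 1 labelled FVB/N. Alternatives for genes other than the members were added after their calls were known. Signal over background limits Atoh1, Abcb1a and the dim Gata6 probe. Saturation limits Klf4, most of the 6 epithelial genes used for scaling and several genes of the goblet and CDX-dependent lists.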

Other observations

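Paralogs of the 9 members, listed after the data had been seen, included ETS factors that were higher and others that leaned lower in Mdr1a-/- mice. Of 21 ETS, FOXA and ATOH paralogs 0 were called lower and 3 higher in Mdr1a-/- mice, beside 2.17% and 2.26% of named genes. The median difference of the 21 was 0.07. Fli1, an ETS factor of blood and endothelial cells, read 1.21, 1.54, 1.18 and 1.17 in Mdr1a-/- mice and 0.16, 0.04, -0.02 and 0.07 on the arrays labelled FVB/N. The groups were far apart relative to their spread, and the difference of 1.21 ± 0.14 (SE) had an adjusted p of 0.00292 in limma and kept its call without any 1 array. Elk3, another ETS factor, differed by 1.06 ± 0.16 (0.0102), also called without any 1 array. The Elk3 call was lost with the sample channel alone, with scan day as a block and with the pancreatic covariate. Ets1, which lymphocytes express, differed by 0.75 ± 0.17 (0.0489) and lost its call without any 1 of the 8 arrays (0.0505 to 0.153). Ets2 (-0.55 ± 0.19, adjusted p = 0.189) and the epithelial factor Ehf (-0.44 ± 0.19, 0.333) leaned the other way and were not called. Ptprc, the pan-leukocyte antigen, was higher on the same arrays (2.69, 2.72, 1.90 and 2.99 against 0.61, 0.34, -0.35 and 0.86), and its part in these values was not tested.

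Of 18 CDX, KLF and GATA paralogs 0 were called lower and 0 higher, beside 2.17% and 2.26% of named genes. The list's median was -0.06. Klf11 came closest at -0.61 ± 0.16 (adjusted p = 0.0804), with no overlap between the groups. Cdx4, the third mouse caudal gene, was above background on no array.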
